A study of Mus musculus with 6 samples.

Results

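Desmosomes are the rivet-like junctions that hold neighbouring keratinocytes together and anchor their keratin filaments. The genes described here encode their cadherins (Dsg1a, Dsg1b, Dsg2, Dsg3, Dsc1, Dsc2 and Dsc3) and the plaque proteins desmoplakin (Dsp), plakoglobin (Jup) and plakophilin 1 (Pkp1). Members were the probe sets whose only annotated symbol was one of these 10 genes, whatever their signal. That gave 19 probe sets, of 45037 on the array besides controls, for 9 of the genes, of 18193 that the annotation names. Of these, 14 read 6 cadherin genes and 5 read the 3 plaque genes. For Dsg3 the platform annotation used here lists no probe set, and it was not analysed here.

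RNA from mouse skin was hybridised to single-channel Affymetrix arrays, 1 array per sample, from 3 wild-type and 3 knock-in samples. Both groups are labelled with the C57BL/6 background. Wild-type samples carry C57BL/6 as source and WT as genotype, while knock-in samples carry KAB6 as source and KA as genotype, and the altered gene is not named. No label gives a sex, age, body site or treatment, or ties a sample to an animal of its own. The p-values therefore set group differences against the spread between the 3 samples within each group, which may be technical.

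In a desmosome, the outer parts of desmogleins and desmocollins bind those of the next cell. Their tails bind plakoglobin and a plakophilin, and desmoplakin ties this plaque to keratin filaments. The epidermis changes its cadherins as cells move outward: desmoglein 1 and desmocollin 1 belong mainly to the upper layers, desmoglein 3 and desmocollin 3 to the lower ones, and desmoglein 2 and desmocollin 2 are also found in hair follicles and in many epithelia outside the skin. Mice carry several closely related desmoglein 1 genes (Dsg1a, Dsg1b and Dsg1c) in place of the human DSG1. Desmoglein 1 is the target of autoantibodies in pemphigus foliaceus and of the exfoliative toxins of Staphylococcus aureus.

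Arrays resembled each other more within groups (Pearson's r of log2 signals across 23153 probe sets from 0.976 to 0.984) than between them (0.899 to 0.929). Xist, expressed from the inactive X chromosome, had signals from 27.8 to 32.5 on the wild-type arrays and from 3442 to 4005 on the knock-in arrays. The Y-linked gene Eif2s3y ran from 639 to 721 and from 4.43 to 5.45, so sex and genotype cannot be told apart in the results that follow. Keratinocyte markers marked both groups: their summed signal was 32055 to 35912 in wild-type and 33927 to 42369 in knock-in, and of 7 genes 2 passed as higher and 1 as lower. Beside this and the marker counts that follow, 16.3% of all genes tested passed as lower and 14.8% as higher. Hair shaft and root sheath markers passed as lower in 9 of 9 tested genes, with sums of 46771 to 57712 and 16286 to 28917. Melanocyte markers were lower in 5 of 5 (sums of 1903 to 4273 and 698 to 1352) and Langerhans cell markers in 3 of 3 (4345 to 6146 and 1887 to 2403). Neutrophil markers were higher in 5 of 5 (533 to 761 and 14405 to 18549) and endothelial markers in 4 of 5 (394 to 547 and 1121 to 1263). Most of the neutrophil sum in knock-in came from S100a8 and S100a9, with knock-in means of 9374 and 6055. Csf3r, Cxcr2 and Mmp8 had knock-in means of 184, 76.2 and 749. Macrophage markers were higher in 2 of 5 (3225 to 5051 and 5857 to 9507), and T cell markers lower in 1 of 2 tested (212 to 248 and 85.2 to 134). Skeletal muscle markers were lower in 3 of 5, with sums that overlapped (28503 to 43281 and 17459 to 28800.3). Sums of fibroblast, adipocyte and sebaceous markers overlapped too, with 1 of 6 higher and 1 lower, 1 of 4 higher and 0 of 3 past the threshold. Of the markers on all these lists that were measured, Cd3e of T cells was the only 1 that lay above the array's median on no array. The part of these changes in cell makeup in the results below was not tested, and in whole skin fewer cells of a type and less RNA per cell cannot be told apart.

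Transcripts of 5 of the 6 measured desmosomal cadherins were lower in knock-in skin, where 16.3% of all genes tested were lower. No difference was detected for the plaque members Dsp, Jup and Pkp1. This does not extend to every plaque gene: of 8 other desmosome and envelope-anchoring genes tested, 5 were lower, Pkp2 among them, and 1 was higher. By the probe set with the highest mean signal, the percent change of the mean was -52.4 for Dsg1a, -49.8 for Dsc2, -36.6 for Dsg2, -33.3 for Dsc1 and -18.5 for Dsc3, and all 5 passed the test. Dsg1b, at -20.3, did not pass. With the mean over each gene's probe sets 4 cadherins passed, without Dsc3 (limma adjusted p = 0.0568). For Dsp, Jup and Pkp1 the percent change was -4.97, -3.16 and -1.5, and their groups overlapped. Log2 differences below subtract the wild-type from the knock-in mean of log2(signal + 16). They are given ± SE, with limma's two-sided test adjusted by Benjamini-Hochberg over all 23153 probe sets tested.

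Of the 19 member probe sets, 18 passed the filter on dim probe sets. Of these, 10 passed the threshold of an adjusted p of 0.05 as lower and 0 as higher, against 17.3% lower and 13.0% higher over all probe sets (30.3% in either direction). All 10 were cadherin probe sets, of 13 tested, while 0 of the 5 plaque probe sets passed. At an unadjusted limma p under 0.05, at which 24.6% of all probe sets were lower, 12 member probe sets were lower, all of them cadherins, and 0 higher. The median log2 difference was -0.58 over the tested cadherin probe sets and -0.05 over the plaque probe sets, beside -0.06 over all probe sets. Signals of the groups did not overlap for 10 of the 18, where 46.4% of all probe sets did not overlap and 27.1% had every knock-in signal below every wild-type signal. Probe sets of 1 gene share their target, so these counts are not counts of independent measurements. Without wild-type replicate 3 the number of members that passed was 6, and without probe sets whose suffix marks possible sharing it was 6 of 12.

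**Figure D1:**
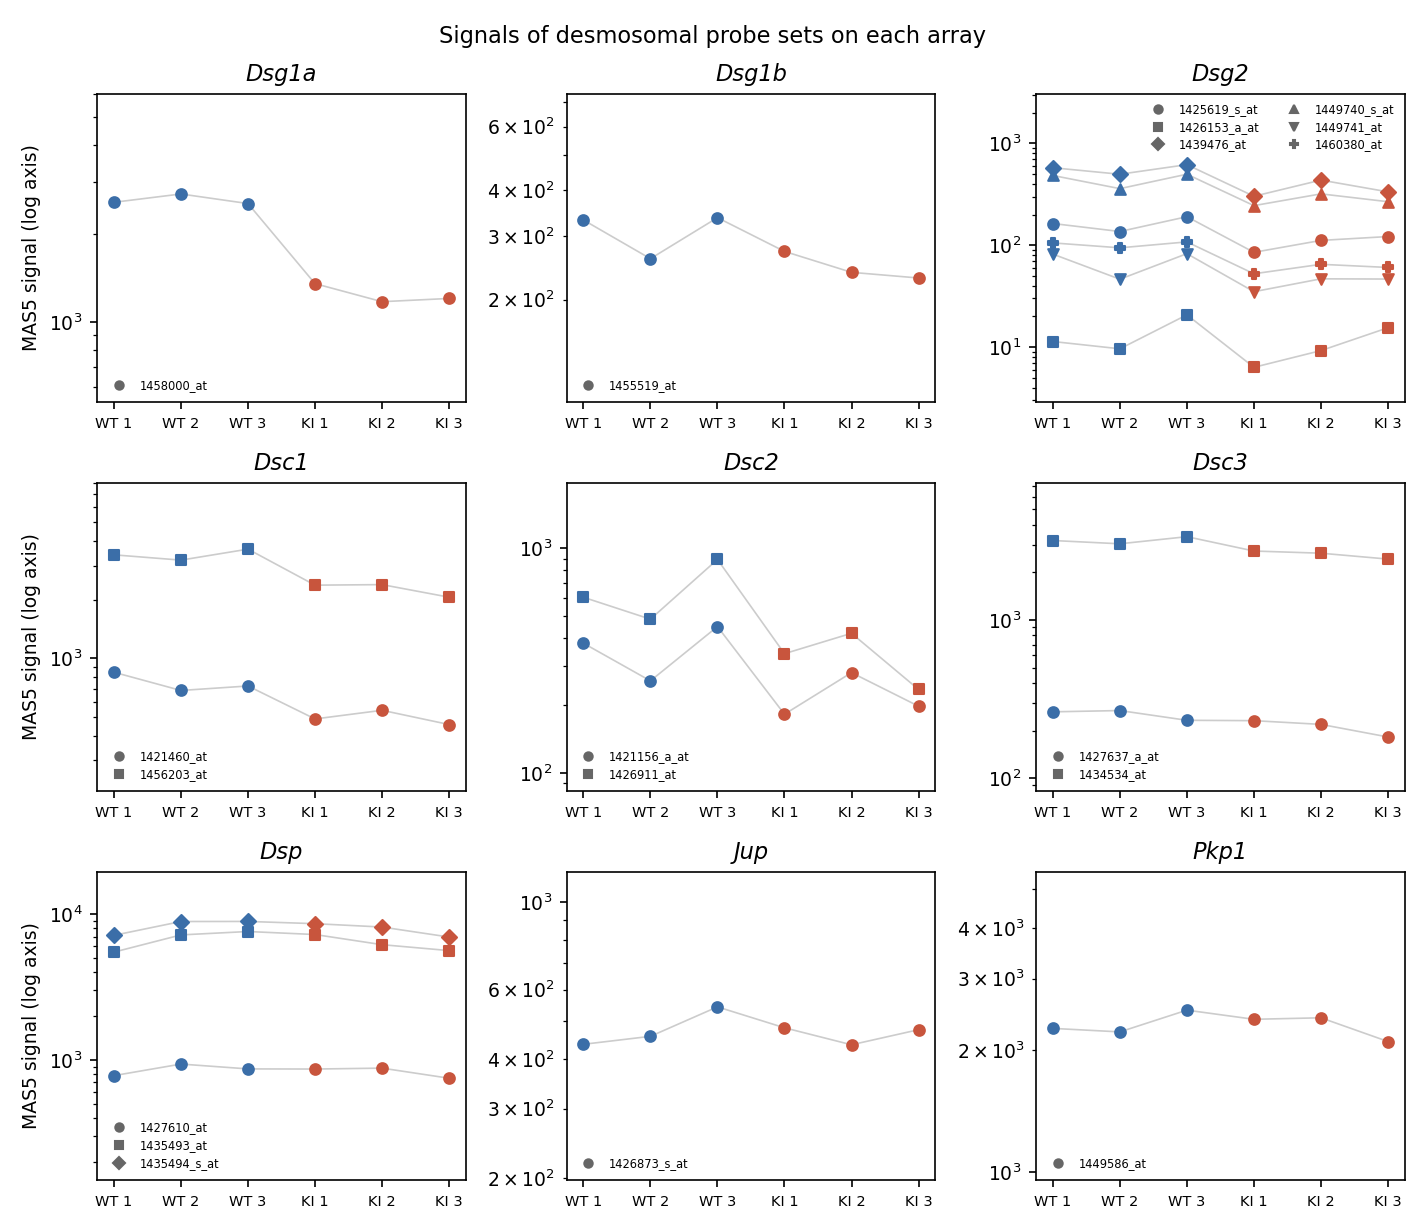
MAS5 signal (log axis) of all 19 member probe sets on each of the 3 wild-type (blue, WT) and 3 knock-in (red, KI) arrays, 1 panel per gene; symbols mark probe sets, and grey lines join the points of a probe set without implying an order. Knock-in points lie below all wild-type points for Dsg1a and Dsc1, and the groups overlap for Dsp, Jup and Pkp1.

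Dsg1a (probe set 1458000_at), the desmoglein 1 paralog with a probe set of high signal, had signals of 2558, 2731 and 2533 in wild-type and of 1351, 1173 and 1203 in knock-in. The 3 knock-in arrays sat close together at about the same distance below the 3 wild-type arrays. The log2 difference was -1.06 ± 0.09 (95% interval from -1.26 to -0.86, limma adjusted p = 6.78e-05), the only member difference of at least 2-fold. At least 2-fold lower and past the threshold were 3.32% of all probe sets. Under the 18 alternatives it stayed between -1.14 and -0.93, with adjusted p from 4.54e-05 to 0.00128.

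Dsg1b (1455519_at), the neighbouring desmoglein 1 paralog, had signals of 332, 259 and 337 in wild-type and 272, 238 and 229 in knock-in. Wild-type replicate 2 fell within the knock-in range, so the groups overlapped. Its log2 difference was -0.30 ± 0.13 (interval from -0.59 to -0.02, limma adjusted p = 0.103). Without wild-type replicate 2 it was -0.42 and passed (adjusted p = 0.0351, in a range from 0.0351 to 0.365 over its alternatives). The desmoglein 1 paralogs are close in sequence, so either probe set may also read another paralog, Dsg1c included, for which no probe set is listed here.

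Dsg2, the desmoglein shared with simple epithelia and the heart, had 6 probe sets. The brightest (1439476_at) gave 577, 498 and 619 in wild-type and 303, 436 and 334 in knock-in, a log2 difference of -0.65 ± 0.14 (limma adjusted p = 0.00950). Every knock-in signal lay below every wild-type signal, with knock-in replicate 2 nearest to wild-type. The probe sets 1449740_s_at (447 ± 76.4 to 277 ± 38.2, SD, n = 3 per group), 1460380_at (102 ± 7.21 to 59.3 ± 6.34) and 1425619_s_at (163 ± 27.1 to 106 ± 18.9) differed by -0.65 ± 0.15, -0.66 ± 0.13 and -0.56 ± 0.16, all past the threshold (limma adjusted p = 0.0102, 0.00565 and 0.0277). The 4 probe sets past the threshold therefore gave nearly the same size of difference. Probe set 1449741_at had signals of 81.8, 46.3 and 82.6 against 34.9, 46.7 and 46.5, with a log2 difference of -0.53 ± 0.20 that missed the threshold (adjusted p = 0.0781) and passed once wild-type replicate 2 was left out (0.0143, in a range from 0.0143 to 0.241). The sixth, 1426153_a_at, was dim on every array (6.32 to 20.7) and was not tested. Of the 4, 1425619_s_at lost its call when wild-type replicate 1, wild-type replicate 3 or knock-in replicate 1 was left out (adjusted p = 0.0580, 0.109 and 0.0893), in a range from 0.0190 to 0.109 over 15 alternatives. Its call was lost as well with no filter, after quantile normalization and after median centring (limma adjusted p = 0.0554, 0.0505 and 0.0846).

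Dsc1, the desmocollin of the upper epidermis, had 2 probe sets. The brighter (1456203_at) gave 3406, 3199.6 and 3644 in wild-type and 2379, 2395 and 2064 in knock-in. Both groups were tight and lay well apart, and the log2 difference was -0.58 ± 0.09 (interval from -0.79 to -0.37, limma adjusted p = 0.00204). The dimmer (1421460_at) gave 849, 684 and 722 against 489, 541 and 457, with the same difference of -0.58 ± 0.11 (adjusted p = 0.00488). Both passed under every alternative, with differences from -0.65 to -0.45.

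Dsc2, the desmocollin found most widely outside the epidermis, varied most between replicates. Its brighter probe set (1426911_at) gave 606, 484 and 893 in wild-type and 339.9, 419 and 236 in knock-in, without overlap. The log2 difference was -0.95 ± 0.24, with an interval from -1.49 to -0.41 (limma adjusted p = 0.0160). Without wild-type replicate 3, the highest array, it was -0.72 (adjusted p = 0.0579), and without knock-in replicate 3, the lowest, -0.74 (0.0612), in a range from 0.00911 to 0.0612 over 18 alternatives. The second probe set (1421156_a_at) gave 378, 257 and 449 against 183, 279.9 and 198, where knock-in replicate 2 exceeded wild-type replicate 2. Its difference of -0.66 ± 0.21 (adjusted p = 0.0398) lost its call when wild-type replicate 1 or 3 (0.0922 and 0.147) or knock-in replicate 1 or 3 (0.119 and 0.126) was left out, in a range from 0.00902 to 0.147. The call was lost as well with no filter, after median centring, without the variance trend and with the replicate block (limma adjusted p = 0.0781, 0.0854, 0.0533 and 0.0880). Wild-type replicate 3 and knock-in replicate 2 were the highest of their groups on both probe sets.

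Dsc3, the desmocollin of the lower epidermis, showed the smallest difference among the cadherins that passed. Signals of the brighter probe set (1434534_at) were 3181, 3032 and 3363 in wild-type and 2729, 2644 and 2427 in knock-in. The groups did not overlap, and the log2 difference was -0.29 ± 0.09 (interval from -0.49 to -0.10, limma adjusted p = 0.0297). This call was lost when wild-type replicate 1 or 3 (adjusted p = 0.0570 and 0.111) or knock-in replicate 2 or 3 (0.0624 and 0.108) was left out, and under 6 other alternatives, with the highest adjusted p, 0.192, after centring each array on its median. On the dimmer probe set (1427637_a_at) signals were 263, 268 and 232 against 231, 219 and 182. Its difference of -0.26 ± 0.12 did not pass (adjusted p = 0.138).

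**Figure D2:**
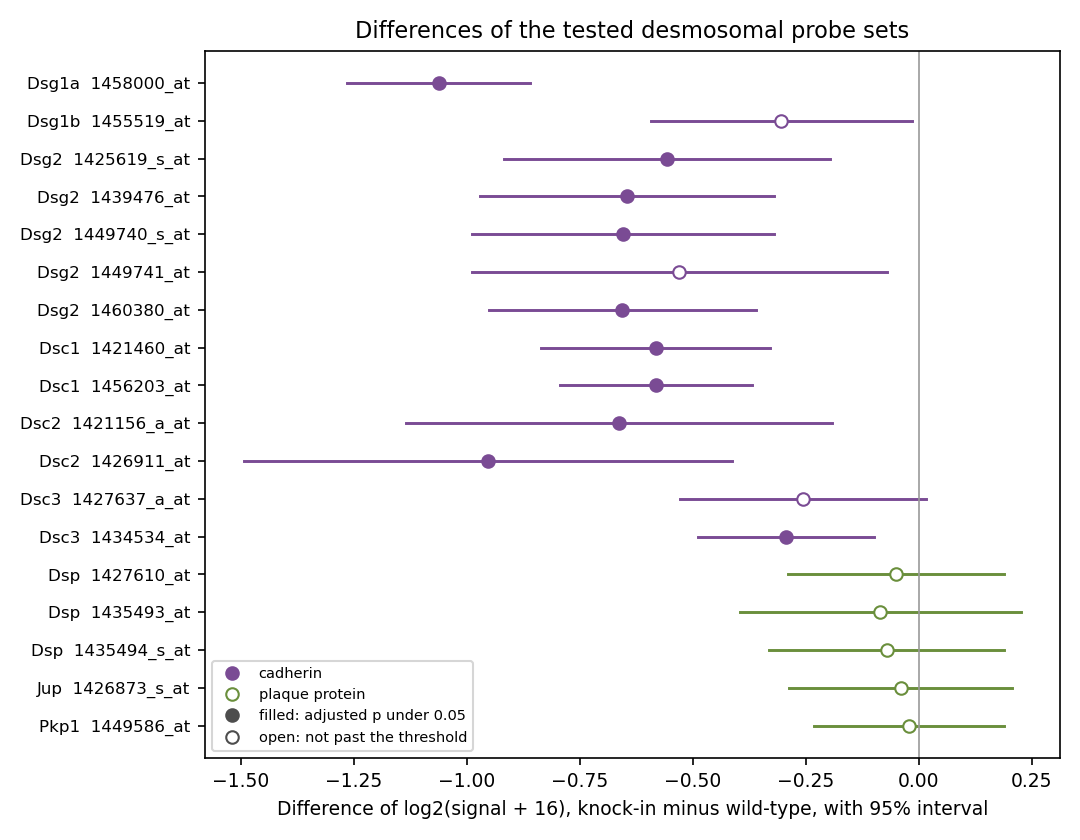
Difference of log2(signal + 16), knock-in minus wild-type, for the 18 tested member probe sets, with the 95% interval of the limma fit (n = 3 arrays per group); cadherins in purple, plaque proteins in green, filled points past an adjusted p of 0.05. Cadherin points run from -1.06 to -0.26 and plaque points from -0.09 to -0.02.

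Desmoplakin, the plaque protein that binds keratin filaments, was read by 3 probe sets. The brightest (1435494_s_at) gave signals of 7141, 8882 and 8892 in wild-type and 8584, 8140.3 and 6953 in knock-in. The 2 groups covered nearly the same range. Its log2 difference was -0.07 ± 0.12 (limma adjusted p = 0.672), with an interval from -0.33 to 0.19. The other two probe sets, 1435493_at and 1427610_at, differed by -0.09 ± 0.14 and -0.05 ± 0.11 (adjusted p = 0.672 and 0.750).

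Plakoglobin, the catenin of both desmosomes and adherens junctions, gave signals of 436, 457 and 543 in wild-type and 480.5, 435 and 475 in knock-in (Jup, 1426873_s_at). The groups overlapped, with a log2 difference of -0.04 ± 0.11 (interval from -0.29 to 0.21, limma adjusted p = 0.811). Plakophilin 1, the plakophilin of the upper epidermis, gave 2261, 2216 and 2508 against 2381, 2401 and 2098 (Pkp1, 1449586_at). Here too the ranges overlapped, and the difference was -0.02 ± 0.09 (interval from -0.23 to 0.19, adjusted p = 0.878). The 95% intervals of all 5 plaque probe sets reached no lower than -0.40 and no higher than 0.23. With 3 arrays per group, a change within the interval of a probe set is not excluded for it. The adjusted p of a plaque probe set was never below 0.165 under any alternative, and the sign of each turned under some of them, among them centring each array on its median.

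Differences between member genes were then taken within each array, which cancels any factor common to the array. Dsg3 had been meant as the lower-layer partner, so the 3 contrasts that use it were not run. Of 12 contrasts, 6 set member genes against each other as planned and 6 set each cadherin against Dsp, chosen after the values were seen. With 3 arrays against 3 the two-sided exact permutation test cannot give a p below 0.1, so no contrast could pass, and the Benjamini-Hochberg adjusted value over the 12 was 0.2 at best. Relative to Dsp, Dsg1a was lower in knock-in by a log2 difference of -0.99 ± 0.12, Dsc2 of -0.88 ± 0.31, Dsg2 of -0.57 ± 0.23 and Dsc1 of -0.51 ± 0.12. For these 4 the groups did not overlap (exact permutation p = 0.1 each). With the mean over each gene's probe sets, Dsg2 minus Dsp (-0.47) and Dsc2 minus Dsp (-0.74) lost this separation (exact permutation p = 0.2 each). Dsg1b and Dsc3 differed from Dsp by -0.23 ± 0.19 and -0.22 ± 0.12 with overlapping groups (exact permutation p = 0.4 and 0.2), and with the mean over probe sets Dsc3 minus Dsp (-0.21) did not overlap (exact permutation p = 0.1). Dsg1b minus Dsp was -0.08 without wild-type replicate 1 and -0.40 without wild-type replicate 2, and Dsc3 minus Dsp was -0.12 without wild-type replicate 1. The differences of Jup and Pkp1 against Dsp were 0.03 ± 0.13 and 0.05 ± 0.11 (exact permutation p = 0.9 and 0.8). Their sign was not fixed: Jup minus Dsp ran from -0.07 to 0.10 and Pkp1 minus Dsp from -0.04 to 0.13 when 1 array was left out, below 0 without wild-type replicate 2 for both and without knock-in replicate 3 for Jup.

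**Figure D3:**
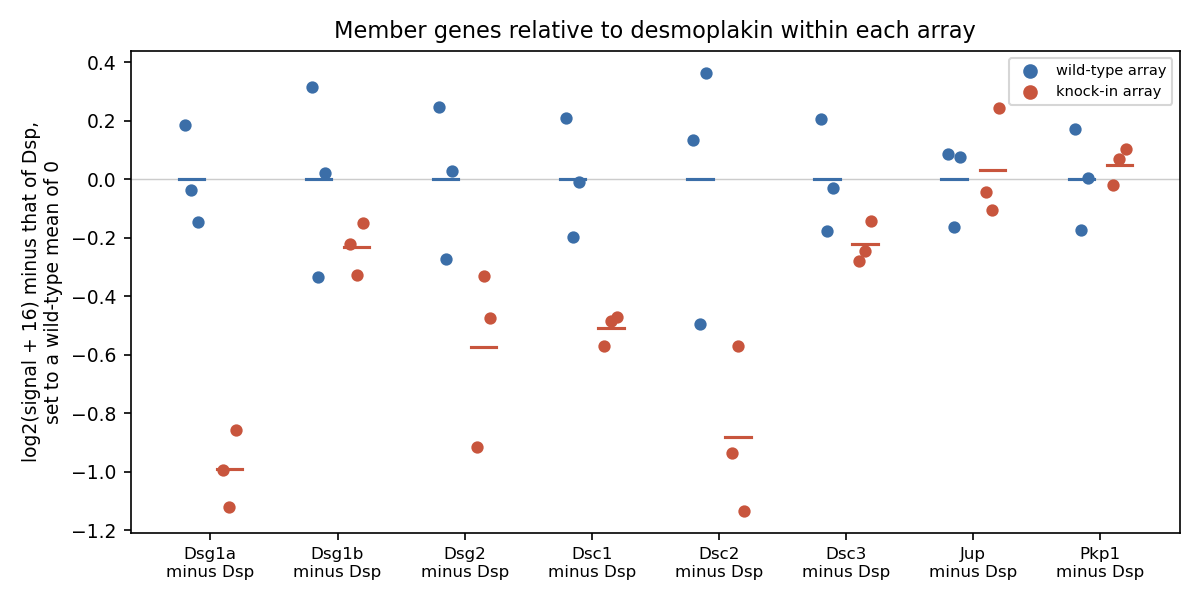
Log2(signal + 16) of each member gene minus that of Dsp on the same array, shifted so that the wild-type mean is 0; points are arrays (3 wild-type in blue, 3 knock-in in red) and bars are group means. Knock-in points of Dsg1a, Dsg2, Dsc1 and Dsc2 lie below all wild-type points, while those of Dsg1b, Dsc3, Jup and Pkp1 overlap them.

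Among the cadherins themselves, the upper-layer Dsc1 lay lower relative to the lower-layer Dsc3 on all 3 knock-in arrays than on any wild-type array. On the 3 wild-type arrays Dsc1 minus Dsc3 was 0.10, 0.08 and 0.12, and on the 3 knock-in arrays -0.20, -0.14 and -0.23. These groups did not overlap, and the change was -0.29 ± 0.03 (exact permutation p = 0.1). Dsg1a minus Dsc1 changed by -0.48 ± 0.12, also without overlap (exact permutation p = 0.1). Dsg1a against Dsg2 (-0.42 ± 0.24) and Dsc1 against Dsc2 (0.37 ± 0.26) overlapped between the groups (exact permutation p = 0.2 each). The former was -0.23 without knock-in replicate 2. The latter was 0.18 without wild-type replicate 3 and 0.23 both without knock-in replicate 3 and with the mean over probe sets.

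Other desmosome and envelope-anchoring genes were then examined, with 1 probe set per gene and p-values adjusted over 11680 genes, of which 16.3% were lower and 14.8% higher (31.1% in all). Of 10 genes on the list 8 were tested, 5 were lower, 1 was higher and 2 did not pass, with a median log2 difference of -0.55 beside -0.02 over all genes tested. Corneodesmosin (Cdsn), the glue protein of desmosomes in the outermost layers, fell from 364 ± 33.8 to 225 ± 14.3 (-0.65 ± 0.11, limma adjusted p = 0.00235). Periplakin (Ppl), which links desmosomes and keratins to the cornified envelope, fell with a log2 difference of -0.57 ± 0.13. Plakophilin 2 (Pkp2), a plakophilin of simple epithelia and the heart, fell with one of -0.67 ± 0.15. Pkp4, a plakophilin relative found largely at adherens junctions, rose by 0.39 ± 0.08. The 2 that did not pass, Pkp3 (-0.09 ± 0.12) and Perp (-0.12 ± 0.10), are a plakophilin of all epidermal layers and a desmosomal membrane protein. Evpl (-0.53 ± 0.14) and Kazn (-0.64 ± 0.19) were the others that were lower. Pkp3, Perp, Evpl and Kazn were named after their values were seen. Without wild-type replicate 3, knock-in replicate 2 or knock-in replicate 3, and with the mean over probe sets, 3 genes of this list passed as lower.

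Adherens junction genes, which couple cells to actin, included 4 lower, 0 higher and 6 that did not pass of 10 tested (median -0.21). Beside this, 16.3% of all genes tested were lower and 14.8% higher. At an unadjusted limma p under 0.05 also 0 were higher, where 4060 of all 23153 probe sets were. Leaving out 1 array gave 3 to 4 lower, and the mean over probe sets 3. E-cadherin (Cdh1) fell from 2583 ± 226 to 1667 ± 141 (-0.63 ± 0.10, limma adjusted p = 0.00245). Nectin4, Afdn, the afadin that binds nectins, and Nectin2 fell with differences of -0.72 ± 0.12, -0.60 ± 0.12 and -0.48 ± 0.13. The difference of Cdh1 was close in size to those of Dsc1 and Dsg2, while Cdh3, the P-cadherin of basal and follicle cells, named after its values were seen, differed by -0.07 ± 0.24 and overlapped.

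Keratins, the filaments that desmosomes anchor, moved in both directions. Of the basal keratins, Krt5 and Krt14 rose by 0.52 ± 0.09 and 0.73 ± 0.11, while Krt15 fell (-1.17 ± 0.16). Of 5 suprabasal keratins tested, Krt80 fell (-1.08 ± 0.13) and 4 did not pass, among them Krt1 (0.39 ± 0.18), Krt10 (-0.14 ± 0.17) and Krt77 (-0.64 ± 0.24). Without knock-in replicate 1 the number lower was 2. Krt1 and Krt10, the main keratin pair of the layers that carry desmoglein 1 and desmocollin 1, overlapped between the groups. Stress keratins of wounded epidermis counted 3 higher of 4, Krt6a, Krt6b and Krt16, and 1 lower, Krt17 (-0.49 ± 0.12). That decrease lost its call, leaving 0 lower, when the first or the third array of either group was left out. Krt6a and Krt6b are near-identical, so their probe sets may read both.

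**Figure D4:**
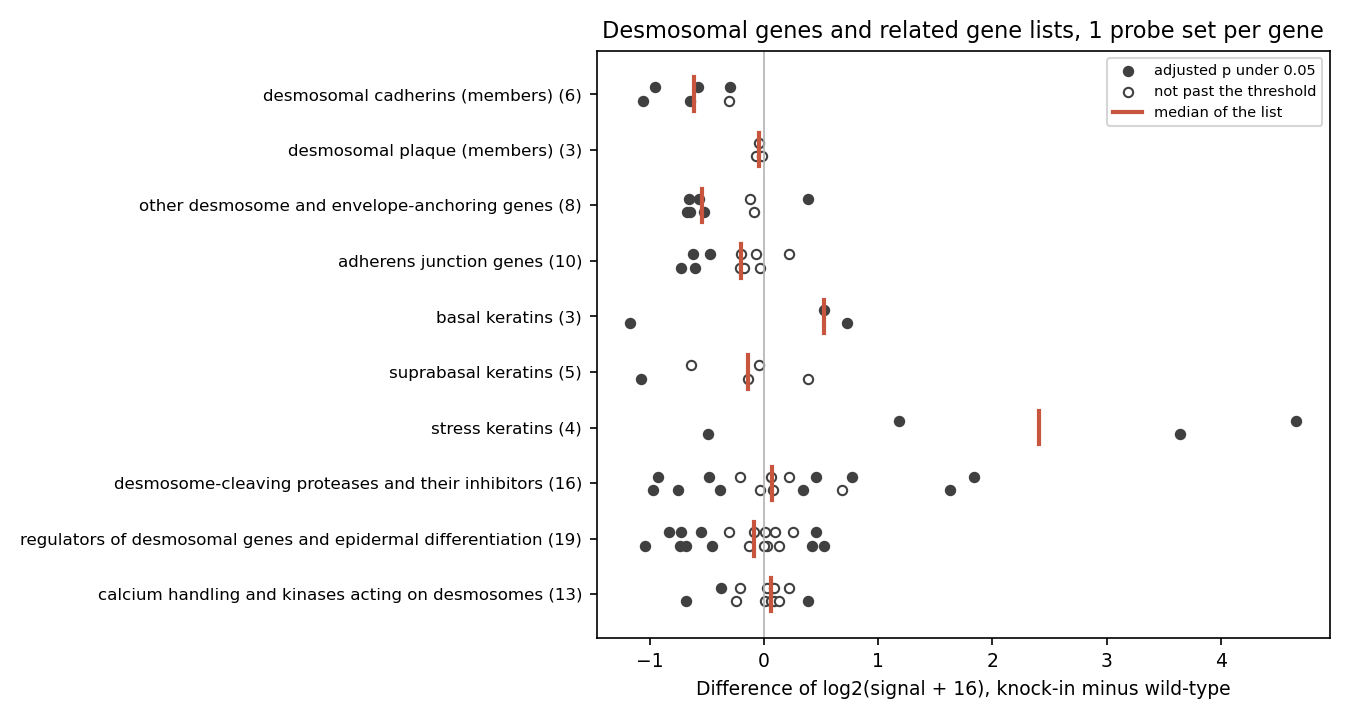
Difference of log2(signal + 16), knock-in minus wild-type, of the member genes and of the related gene lists, 1 point per tested gene with 1 probe set each; filled points passed an adjusted p of 0.05, red bars are medians and numbers in brackets are genes tested. The 6 cadherins lie between -1.06 and -0.29, the 3 plaque genes at -0.07, -0.04 and -0.02, and the stress keratins reach 4.66.

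Of 16 tested genes for proteases that cut desmosomal proteins and for their inhibitors, 5 were higher, 5 lower and 6 not past the threshold (median 0.07). Beside this, 14.8% of all genes tested were higher and 16.3% lower. Leaving out 1 array gave 4 to 5 higher and 4 to 5 lower. The 5 higher were all proteases: Klk6, Klk13, Ctsl, Adam17 and Adam15, of which Adam17 lay nearest to the threshold (limma adjusted p = 0.0455). The 5 lower were the protease St14 and every inhibitor tested, Spint2, Spint1 (-0.93 ± 0.19), Spink5 (-0.48 ± 0.14) and Cst6 (-0.39 ± 0.09). This division into proteases and inhibitors was made after the values were seen. Klk6, a kallikrein of the outer epidermis, rose from 471 ± 90.5 to 1706 ± 154 (1.84 ± 0.14, limma adjusted p = 6.45e-05), and the metalloprotease Adam15 rose by 0.77 ± 0.12. The membrane protease matriptase (St14) and Spint2, an inhibitor of it, fell (-0.98 ± 0.15 and -0.76 ± 0.11). Klk5 and Klk7, the kallikreins best known for cutting corneodesmosomes, were named after their values were seen and had differences of -0.04 ± 0.16 and 0.06 ± 0.09 that did not pass.

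Among regulators of desmosomal genes and of epidermal differentiation, 7 were lower, 3 higher and 9 did not pass of 19 tested (median -0.09). Grhl1, the grainyhead factor known in mice to activate Dsg1 genes, fell from 1593 ± 167 to 890 ± 93.1 (-0.83 ± 0.11, limma adjusted p = 0.00108). Gata3, Maf and Zfp750, which act in keratinocyte or hair follicle differentiation, fell as well (-1.04 ± 0.11, -0.68 ± 0.10 and -0.55 ± 0.09). Trp63, the master factor of stratified epithelia, was named after its values were seen and had a difference of 0.01 ± 0.10. The 3 higher genes, also named after their values were seen, were Snai2 (0.45 ± 0.12), Zeb1 (0.42 ± 0.13) and Zeb2 (0.53 ± 0.14). Leaving out any 1 array gave 1 to 2 higher and 5 to 7 lower. The number higher was 1 when knock-in replicate 2, wild-type replicate 1 or wild-type replicate 3 was left out, and 0 with the mean over probe sets. A list of calcium handling genes and of kinases acting on desmosomes also held Pkp4 and Zdhhc5, which are neither. Of its 13 tested genes, 2 were lower, 1 was higher and 10 did not pass (median 0.06). Over all genes tested 16.3% were lower and 14.8% higher. The growth factor receptor Egfr and the epidermal kinase Prkch fell (-0.68 ± 0.11 and -0.38 ± 0.10), Pkp4 on this list too was the gene that rose, and the calcium pump Atp2a2 differed by 0.22 ± 0.08 and did not pass. The number lower on that list was 1 when wild-type replicate 3 or any 1 knock-in array was left out.

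All cadherin members lie side by side on mouse chromosome 18, whereas Dsp, Jup and Pkp1 lie on chromosomes 13, 11 and 1. In the RefSeq gene table of GRCm38.p6 the order is Aqp4, Chst9, Cdh2, Dsc3, Dsc2, Dsc1, Dsg1c, Dsg1a, Dsg1b, Dsg4, Dsg3, Dsg2, Ttr, B4galt6 and Trappc8. Neighbours were taken by position, after the values of the members were known. Beside the desmocollins, Cdh2, the N-cadherin gene, differed by 0.19 ± 0.24 and did not pass. Farther out, Aqp4, a water channel, and Chst9, a sulfotransferase, did not pass the filter on dim probe sets. Aqp4 had signals of 36.7 to 81.4 in wild-type and 0.556 to 14.3 in knock-in, without overlap, and those of Chst9 overlapped (0.315 to 7.34 and 2.41 to 6.99). On the other side, B4galt6, a glycolipid galactosyltransferase, fell (-0.64 ± 0.13, limma adjusted p = 0.00637 over genes), as did Trappc8, a vesicle-tethering factor (-0.32 ± 0.09, adjusted p = 0.0241). Ttr, which lies between Dsg2 and B4galt6, did not pass the filter on dim probe sets, with signals of 8.78 to 14.3 in wild-type and 38.2 to 70.1 in knock-in.

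The 3 genes whose signals followed Dsg1a most closely over the 6 arrays were Gatm, a creatine synthesis enzyme, Ide, an insulin-degrading protease, and Tspyl4. Their root mean square differences from Dsg1a, after centring each gene's log2(signal + 16) on its mean, were 0.05, 0.07 and 0.07. Among the members, the smallest such difference was 0.09, between Dsg1b and Dsc3, and the next was 0.10, between Jup and Pkp1. These likenesses rest on 6 arrays in 2 groups and describe the levels alone.

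The scale of the arrays bears on the small differences. The deposited signals share a trimmed mean, but knock-in arrays had lower medians (37.5 to 40.8 against 41.9 to 45.7 in wild-type), and centring on the median moved the median log2 difference of all tested probe sets by 0.13, from -0.06 to 0.07. The share of calls that were lower was then 36.1%, in place of 57.2%, and 7 member probe sets passed as lower in place of 10. The 13 tested cadherin probe sets had a negative difference under all alternatives, and 6 of them, those of Dsg1a, both of Dsc1 and 3 of Dsg2, passed under every alternative that measured them.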

How the data were processed

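Skin RNA was measured on 6 single-channel arrays with biotin-labelled targets after TRIzol extraction, per the labels' protocols. The deposited values are linear signal intensities, 1 per probe set and array, made by the authors with MAS5 per the submitters' processing notes. Its version is not given in the sources used here. The 2% trimmed mean of each array was 150, so no further scaling was applied. MAS5 scales an array by 1 factor and leaves the shape of its distribution as it is. No detection calls were used here.

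Of 45101 probe sets, 64 are controls and were left out. By the platform annotation 34945 have 1 gene symbol, 932 several and 9160 none, and only the first named a gene. By gene ID, 34741 were matched to RefSeq genes of GRCm38.p6, with 0 symbols changed. Probe sets above the median of their array on at least 3 arrays (23153) were tested in R 4.3.3 with limma 3.58.1 on log2(signal + 16) (lmFit, eBayes with a trend, two-sided, Benjamini-Hochberg threshold 0.05). Differences of log2 values made from the deposited signals understate the change of dim probe sets. For gene lists and neighbours, the probe set with the highest mean stood for a gene (11680 genes tested). The fit was tested on simulated data.

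Replicate numbers gave no sign of pairing: deviations from the group means of same-numbered arrays correlated at -0.24, -0.34 and -0.05. Those of unlike-numbered arrays ran from -0.02 to 0.28, and whether any of these shared a batch was not tested. Members, gene lists and tests were chosen with earlier results of these data known. From each list up to 4 tested genes with the smallest unadjusted p were named. Alternatives were other offsets, filters, normalizations, variance models, units of the fit, a replicate block, and leaving out each array. The number of arrays limits the precision. No cadherin sequence is printed.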

Additional observations from a re-analysis of the deposited data

How the results depend on the processing

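Offsets of 1 or 64, array weights and a stricter filter left the member count at 10, and under every alternative 0 members were higher. With no filter 7 members passed, after quantile normalization 9, after median centring 7 and without the variance trend 8. Without probe sets of possibly shared sequence 6 passed; these are also fewer probe sets. With 1 probe set per gene 5 of 9 genes passed, and 3637 of all genes; with the mean over probe sets 4 did, and 3209, where fewer features were tested. Leaving out 1 array gave 6 to 12 members, and 4418 to 6569 probe sets in all against 7010. The replicate block gave 8 members and 4888 probe sets, losing Dsc2 1421156_a_at and Dsc3 1434534_at. After median centring Dsp had differences of 0.081 (1427610_at), 0.046 (1435493_at) and 0.060 (1435494_s_at), Jup 0.091 and Pkp1 0.11, the sign turned and the call unchanged. With 1 array left out these ran from -0.119 to 0.021, -0.229 to 0.0054 and -0.177 to 0.017 for Dsp, -0.102 to 0.051 for Jup and -0.057 to 0.040 for Pkp1. Why single calls were lost was not tested. The 3 planned contrasts with Dsg3 were not run because no probe set is listed for it.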
